A study of Mus musculus with 2 samples.

Results

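The INK4 family comprises 4 genes, Cdkn2a, Cdkn2b, Cdkn2c and Cdkn2d, and was taken as a whole: all 4 were among the 15247 genes of the table. The level of each gene, the share of cells with its transcripts and its presence together with the others in the same cell were examined in fibroblasts and macrophages. The cells came from the hearts of C57BL/6 mice 20 to 22 months old that carried the p16-FDR construct, which holds an FLP recombinase and a diphtheria toxin receptor joined to the red fluorescent protein mCherry. Cells positive for mCherry were sorted by flow cytometry and profiled with the droplet 3' v3 kit of 10X Genomics, in which each captured transcript carries a unique molecular identifier (UMI). There are 2 labelled samples, both in 1 group, so no unsorted, mCherry-negative or young sample was set beside them, and both samples shared genotype, strain, age range and sort. By the prefix of its name, each cell belongs to Heart1 or Heart2, taken here as 2 libraries. Which sample each prefix stands for, whether the animals were separate and whether animals were pooled is not given in the labels.

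INK4 proteins bind the kinases CDK4 and CDK6 and keep D-type cyclins from activating them, so that the RB protein stays in its growth-blocking form. Cdkn2a encodes p16 and, from another first exon, p19Arf, which acts on the p53 regulator MDM2. Cdkn2b encodes p15, a target of TGF-beta signalling, Cdkn2c encodes p18 and Cdkn2d encodes p19 (INK4d), both better known from development and differentiation. Cdkn2a and Cdkn2b are held silent by Polycomb complexes in young tissue, and p16 is a widely used marker of cellular senescence. The sort was made on a reporter of p16, so the shares given here are those inside that gate.

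In the GENCODE annotation of GRCm38, Cdkn2a spans bases 89274471 to 89294653 of the minus strand of chromosome 4. Cdkn2b lies at 89306299 to 89311039 on the same strand, 11646 bases away. Cdkn2c lies farther along that chromosome at 109660876 to 109667189, while Cdkn2d lies on chromosome 9 at 21288410 to 21291407. No gene of the annotation overlapped any of the 4. The transcripts of p16 (Cdkn2a-201) and p19Arf (Cdkn2a-202) share the exon at 89276645 to 89276985 and the last exon, so a 3' UMI count cannot tell them apart. The 3 start regions of the Cdkn2a and Cdkn2b locus are shown because the transcripts of these 2 genes were found in the same cell in 56 cells over all strata, against 29.95 expected from their shares, the highest such ratio of the 6 INK4 pairs. Each is the RefSeq window of GRCm38.p6 from 250 bases before to 50 bases after a transcript start, on the minus strand, 5' to 3'. Capitals mark matches on either strand to the GC box GGGCGG, to the E2F words TTTCGCGC, TTTGGCGC and TTTCCCGC, and to the cyclic AMP response element TGACGTCA.
Cdkn2a, p16 start, chr4:89282143-89282442: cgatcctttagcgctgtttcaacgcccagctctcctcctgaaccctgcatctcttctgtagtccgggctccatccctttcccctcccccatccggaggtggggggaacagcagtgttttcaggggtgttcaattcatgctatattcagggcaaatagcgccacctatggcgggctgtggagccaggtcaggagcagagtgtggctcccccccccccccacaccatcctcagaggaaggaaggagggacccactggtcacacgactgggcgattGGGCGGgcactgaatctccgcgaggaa
Cdkn2a, p19Arf start, chr4:89294570-89294869: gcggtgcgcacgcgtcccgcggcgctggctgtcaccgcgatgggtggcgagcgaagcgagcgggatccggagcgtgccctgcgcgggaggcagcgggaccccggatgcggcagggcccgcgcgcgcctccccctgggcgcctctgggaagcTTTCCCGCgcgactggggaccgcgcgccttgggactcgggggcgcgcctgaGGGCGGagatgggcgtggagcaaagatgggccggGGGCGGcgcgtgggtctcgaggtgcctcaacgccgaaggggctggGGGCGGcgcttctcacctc
Cdkn2b start, chr4:89310983-89311282: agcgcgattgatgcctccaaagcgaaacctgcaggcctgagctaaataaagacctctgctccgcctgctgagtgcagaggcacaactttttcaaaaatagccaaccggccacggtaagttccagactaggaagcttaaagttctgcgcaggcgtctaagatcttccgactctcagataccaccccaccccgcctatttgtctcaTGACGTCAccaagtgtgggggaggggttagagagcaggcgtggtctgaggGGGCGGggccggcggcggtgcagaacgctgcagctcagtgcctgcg
The windows differed in the words they held. The GC box occurred 1 time in the p16 window, 3 times in the p19Arf window and 1 time in the Cdkn2b window, and at least once in 35.7% of all 32851 RefSeq windows of this length. The p19Arf window alone of these 3 held an E2F word, TTTCCCGC, found in any of its spellings in 1.84% of all windows. Among the 3, TGACGTCA was present only in the Cdkn2b window, and it occurred in 1.79% of all windows. Of the other words searched, CCAAT occurred once in the p16 window, and none of the 3 held the TATA box TATAAA, the AP-1 words TGACTCA and TGAGTCA, the E-box CACGTG or the SMAD words GTCTAGAC and CAGACA. Both strands were searched for each. The CCAAT of the p16 window, on the opposite strand, overlapped its GC box, and no capitalised match overlapped another. The 2 Cdkn2c windows held 4 and 0 GC boxes and the Cdkn2d window held 5, with no E2F word and no TGACGTCA in any of them.

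Heart1 held 266 cells with a median of 11352 UMIs per cell and Heart2 held 1160 cells with a median of 8886, and the libraries shared 0 cell barcodes. A cell counted as a fibroblast or a macrophage when it had a UMI of at least 4 of 6 markers of that class and of at most 2 of 6 of the other. The gate took 205 and 939 fibroblasts and 37 and 208 macrophages from Heart1 and Heart2, and left 24 and 13 cells ungated. Markers outside the gate differed widely between the classes, though not all were equally clean. Sparc, a collagen-binding matrix protein, was in 100% and 99.8% of fibroblasts and in 0 of 37 (up to 8.11% at this count) and 0.481% of macrophages. The fibroblast genes Serpinf1, Mgp and Bgn were each in at least 96.6% of fibroblasts of either library. In macrophages of Heart1 and Heart2, Serpinf1 was in 13.5% and 23.1%, Mgp in 8.11% and 10.1% and Bgn in 13.5% and 3.85%. The lysosomal protease Ctss was in 0 of 205 (up to 1.46%) and 0.213% of fibroblasts and in 100% of macrophages of both libraries. Lyz2, another macrophage gene found in all macrophages, had a UMI in 6.83% and 7.35% of fibroblasts, a class that should lack it. Median depth was 11871 and 8772 UMIs in fibroblasts and 8133 and 9569 in macrophages. No gated cell had 2 markers of endothelial, T and NK, or B cells. Of the macrophages, 3 of 37 in Heart1 and 18 of 208 in Heart2 had 2 cardiomyocyte markers, and of the fibroblasts 3 of 205 and 7 of 939. Of the fibroblasts, 58 of 205 in Heart1 and 144 of 939 in Heart2 had 2 mural markers, led by Pdgfrb in 72.2% and 72.7%. Rgs5, a pericyte gene, was in 9.27% of fibroblasts of Heart1 and 0.532% of those of Heart2. The libraries stood apart in the Cdkn2a of their fibroblasts, so values are given by library throughout.

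Cdkn2a had the widest spread of the 4 genes. Fibroblasts of Heart1 had a Cdkn2a UMI in 71 of 205 cells (34.6%, exact binomial interval 28.1 to 41.6%) and fibroblasts of Heart2 in 7 of 939 cells (0.745%, 0.30 to 1.53%). Macrophages had one in 16 of 37 cells of Heart1 (43.2%, 27.1 to 60.5%) and in 56 of 208 cells of Heart2 (26.9%, 21.02 to 33.49%). Of these 4 strata, the combinations of class and library, 3 were high and the fibroblasts of Heart2 were low, with an interval that reached none of the others. Summed over cells, the Cdkn2a level was 82.3 and 2.13 CPM (UMIs per 1000000 UMIs) in fibroblasts and 118 and 96.9 CPM in macrophages of Heart1 and Heart2. With every cell thinned to 3000 UMIs, the shares were 15.9% and 0.342% in fibroblasts and 21.5% and 14.3% in macrophages, in the same order. The intervals here and below have a level of 95% and cover counting error only. The most Cdkn2a UMIs in a cell were 25 and 9 in fibroblasts and 16 and 20 in macrophages. Of the 18 Cdkn2a UMIs in the 7 fibroblasts of Heart2, 1 cell held 9 and another held 4. The share of 0.745% lies between the 0.213% and 7.35% of these fibroblasts with a UMI of Ctss and Lyz2. Those 2 genes were at 1920 and 23276 CPM in macrophages of Heart2, against 96.9 CPM for Cdkn2a, so they set no floor for it. The 5 cells with 1 UMI are not read as expressing Cdkn2a here, and the source of these UMIs was not tested. Other genes differed between the fibroblasts of Heart1 and Heart2 too: Rgs5 as given above, the Schwann cell marker S100b in 22.0% and 1.60% (75.3 and 6.62 CPM), and Wif1, a secreted Wnt inhibitor, in 18.5% and 1.06%. Their part in the library difference was not tested.

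Cdkn2b was highest in fibroblasts of Heart1 and lowest in those of Heart2. Fibroblasts had a Cdkn2b UMI in 63 of 205 cells (30.7%) in Heart1 and 57 of 939 (6.07%) in Heart2, and macrophages in 6 of 37 (16.2%) and 19 of 208 (9.13%). The summed Cdkn2b level was 46.9 and 9.58 CPM in fibroblasts and 25.9 and 15.6 CPM in macrophages. After thinning to 3000 UMIs the shares were 11.4% and 2.01% in fibroblasts and 4.86% and 3.37% in macrophages. In fibroblasts of Heart2, 48 of the 57 cells held 1 UMI, and the share of 6.07% and level of 9.58 CPM were close to the 7.35% and 9.23 CPM of Lyz2. Lyz2 was at 23276 CPM in macrophages of Heart2, against 15.6 CPM for Cdkn2b, so it sets no floor for stray Cdkn2b UMIs. Those single UMIs are not read as expression here, and their source was not tested. Heart1 macrophages, with 9 Cdkn2b UMIs in all, had intervals of share and level that overlapped those of every other stratum. The UMIs of Cdkn2a and Cdkn2b stood at 223 to 127 and 18 to 81 in fibroblasts, and at 41 to 9 and 199 to 32 in macrophages of Heart1 and Heart2. The UMIs of the 2 genes were thus not in 1 ratio over the classes of a library.

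Cdkn2c was the INK4 gene with the steadiest level between libraries. Its share was 129 of 205 (62.9%) and 472 of 939 (50.3%) in fibroblasts, and 10 of 37 (27.0%) and 44 of 208 (21.2%) in macrophages. The Cdkn2c level was 87.9 and 94.3 CPM in fibroblasts and 37.5 and 34.6 CPM in macrophages, so both fibroblast values lay above both macrophage values. After thinning, 24.2% and 23.5% of fibroblasts and 10.2% and 8.47% of macrophages had a UMI. Of these fibroblasts, 64 of 129 and 273 of 472 held 1 UMI, and the most in a cell was 7 and 8. In macrophages 8 of 10 and 38 of 44 held 1 UMI, and 1 macrophage of Heart2 held 17.

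Cdkn2d differed least between classes and libraries together, within 19.0 to 37.5 CPM. Its share was 76 of 205 (37.1%) and 222 of 939 (23.6%) in fibroblasts, and 9 of 37 (24.3%) and 26 of 208 (12.5%) in macrophages. The Cdkn2d level was 34.7 and 30.3 CPM in fibroblasts and 37.5 and 19.0 CPM in macrophages. The counting interval of the macrophages of Heart2, 13.5 to 26.0 CPM, lay below those of both fibroblast strata, and the other 3 strata overlapped. Cells with Cdkn2d were deeper: in Heart1 the fibroblasts with a UMI had a median of 13507 UMIs and those without had 11138.

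**Figure D1:**
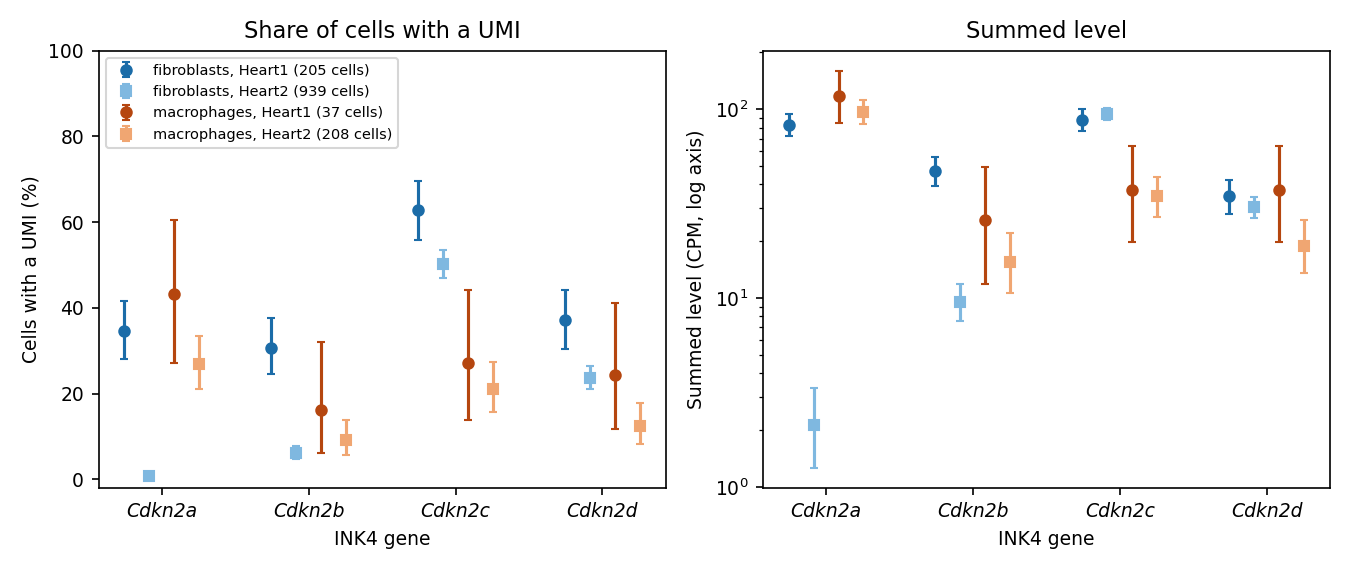
Share of cells with a UMI (left, percent, with exact binomial intervals) and summed level (right, CPM on a log axis, with Poisson intervals) of each INK4 gene in fibroblasts and macrophages of the libraries Heart1 and Heart2. Cdkn2a of the Heart2 fibroblasts, at 0.745% of cells and 2.13 CPM, lies far below the other 3 strata, while Cdkn2c lies at 87.9 and 94.3 CPM in fibroblasts and at 37.5 and 34.6 CPM in macrophages.

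Fibroblasts were then compared with macrophages over the libraries, with counts summed per library and class, in limma with library as a block. The difference is fibroblast minus macrophage on the log2(CPM + 5) scale, which understates the change of low genes. Of 8780 genes tested, limma called 44.1% at an adjusted p below 0.05, 26.6% higher and 17.6% lower in fibroblasts, with a median difference of 0.16 over all genes. Of the 4 INK4 genes, 1 was called higher, 1 lower and 2 were not called. Cdkn2c was 1.23 ± 0.25 higher in fibroblasts (SE; library values 1.13 and 1.33; limma adjusted p = 6.07e-05). Cdkn2a was lower in fibroblasts by a difference of -2.17 ± 0.36 (limma adjusted p = 1.84e-06), but the libraries gave -0.50 and -3.84. The call on Cdkn2a was lost without the library block (limma adjusted p = 0.171) and when limma was allowed a gene-wise outlying variance (SE 1.52, limma adjusted p = 0.490). Cdkn2b differed by 0.12 ± 0.32 (library values 0.75 and -0.50; limma adjusted p = 0.793), with opposite signs in the libraries. Cdkn2d differed by 0.23 ± 0.29 (-0.10 and 0.56; limma adjusted p = 0.559). The fit has 1 residual and 43.3 prior degrees of freedom, so SE and p-values rest mostly on a variance pooled over genes. For Cdkn2a the SE of 0.36 stands beside an SD of 2.36 between the differences of the 2 libraries. The p-values cover only these 2 libraries, and the spread between them may be technical.

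The other inhibitors and the targets of INK4 proteins did not share 1 direction. Among the CIP/KIP inhibitors, which bind cyclin and CDK complexes, 1 of 3 was called: Cdkn1c (p57) was 2.63 ± 0.29 higher in fibroblasts (66.8 and 94.0 CPM in fibroblasts, 2.88 and 18.5 CPM in macrophages; limma adjusted p = 1.88e-10). Cdkn1a (p21) and Cdkn1b (p27) differed by -0.19 ± 0.20 and 0.55 ± 0.27 and were not called. Of the 5 D cyclins and their kinases, Ccnd3 was called higher (1.30 ± 0.25), Ccnd1 and Cdk6 were called lower (-1.41 ± 0.21 and -1.57 ± 0.27), and Ccnd2 and Cdk4 were not called (0.05 ± 0.24 and 0.37 ± 0.22). In the RB family, 2 of 3 genes were tested: Rb1 was called lower (-1.13 ± 0.28), Rbl2 was not called (-0.04 ± 0.28), and Rbl1 was too low to test. Median differences were 0.55 over the CIP/KIP genes and 0.05 over the D cyclins and kinases, beside 0.16 over all genes.

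**Figure D2:**
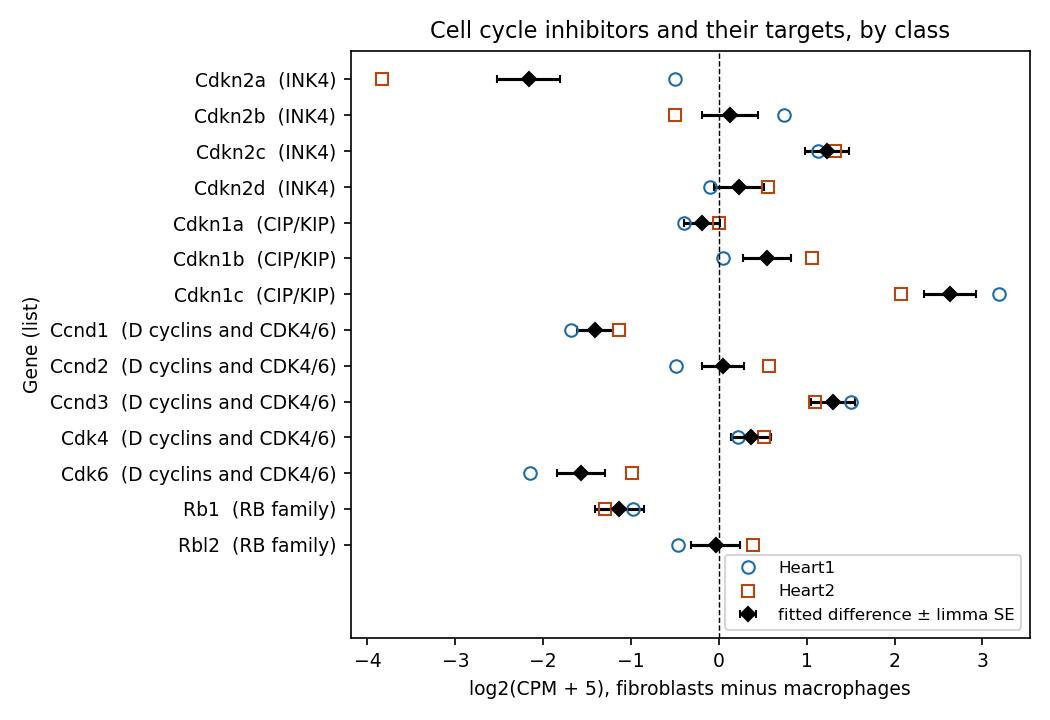
Fibroblast minus macrophage difference on the log2(CPM + 5) scale of INK4, CIP/KIP, D cyclin, CDK4/6 and RB family genes: diamonds are the limma estimates with their SE, circles are Heart1 and squares Heart2. Cdkn2c has both libraries near 1.23, whereas Cdkn2a spreads between -0.50 and -3.84 and Cdkn2b lies on both sides of 0.

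Genes that act on or downstream of the family were counted the same way. Of 6 tested E2F factors and partners (of 10 listed), Tfdp2 was called higher (1.48 ± 0.35) and E2f1 lower (-2.13 ± 0.42). Of 10 tested proliferation genes (of 13), Mcm4 was called higher (1.02) and 5 were called lower, Stmn1 at -3.22, Top2a at -2.95, Mki67 at -2.91, Birc5 at -1.85 and Mcm3 at -1.45. Summed levels of Mki67 were 2.95 and 0 CPM in fibroblasts and 46.1 and 39.0 CPM in macrophages. None of the 7 later cyclins and CDKs in the table had the mean of 10 CPM needed for testing. Of 11 tested Polycomb genes (of 15), which silence the Cdkn2a locus, 0 were called higher and 2 lower, Kdm2b at -1.23 ± 0.30 and Phc2 at -0.87 ± 0.25. Of 18 tested genes among 20 other INK4 and ARF regulators, 8 were called higher and 2 lower. The largest differences in that list were those of Id4 (3.59 ± 0.40), an inhibitor of helix-loop-helix factors, Klf9 (2.53 ± 0.27), Ets2 (-1.95 ± 0.29), Ets1 (1.80 ± 0.31) and Id3 (1.46 ± 0.21). Id4 was at 259 and 16.6 CPM in fibroblasts and at 2.88 and 0 CPM in macrophages. Of 10 tested genes of the ARF and p53 axis (of 12), Phlda3 (2.86) and Npm1 (0.47) were called higher and Sesn1 (-1.54) and Bax (-0.81) lower. Mtap, the next gene beyond Cdkn2a at 93390 bases, was called higher (0.69 ± 0.28; limma adjusted p = 0.0445), the opposite sign to Cdkn2a. Klhl9, the other listed neighbour in the table, differed by -0.39 ± 0.24 and was not called. Of 7 tested neighbours of Cdkn2c and Cdkn2d, Rnf11 (1.71) and Slc44a2 (1.52) were called higher.

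Cdkn2a and Cdkn2b were next examined in the same cell. The expected number of cells with both is the product of the 2 shares times the number of cells, and the ratio of the observed to this number is given with a Poisson interval of the observed count. That interval does not hold the numbers of cells with each gene fixed, so it is wide where both genes are common. In fibroblasts of Heart1, 35 of 205 cells had both, against 21.8 expected (ratio 1.60, 1.12 to 2.23). In fibroblasts of Heart2, 4 of 939 cells had both, against 0.425 expected (9.41, 2.56 to 24.1). In macrophages of Heart1, 3 of 37 cells had both, against 2.59 expected (1.16, 0.238 to 3.38), and in macrophages of Heart2, 14 of 208 against 5.12 (2.74, 1.496 to 4.592). The ratio was above 1 in 4 of 4 strata. Of the 4 fibroblasts of Heart2, 2 held 1 UMI of each gene, the source of such single UMIs was not tested, and this stratum is given as a description. Of the other 3, the interval lay above 1 in fibroblasts of Heart1 and macrophages of Heart2. A difference from 1 was not detectable at this depth in the 37 macrophages of Heart1.

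Cells with both were deeper than cells with neither, with medians of 11963 against 10819 UMIs in fibroblasts of Heart1, 14699 against 8643 in those of Heart2, 13714 against 6445 in macrophages of Heart1 and 12170 against 9281 in those of Heart2. Thinned to 3000 UMIs, the Cdkn2a and Cdkn2b ratio was 2.51 and 15.1 in fibroblasts and 1.496 and 2.94 in macrophages of Heart1 and Heart2. With the expected number summed over 4 depth classes of equal size, it was 1.41 and 5.87 in fibroblasts and 1.08 and 2.15 in macrophages. The interval over depth classes included 1 in fibroblasts of Heart1 (0.981 to 1.96) and lay above 1 in macrophages of Heart2 (1.18 to 3.61).

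**Figure D3:**
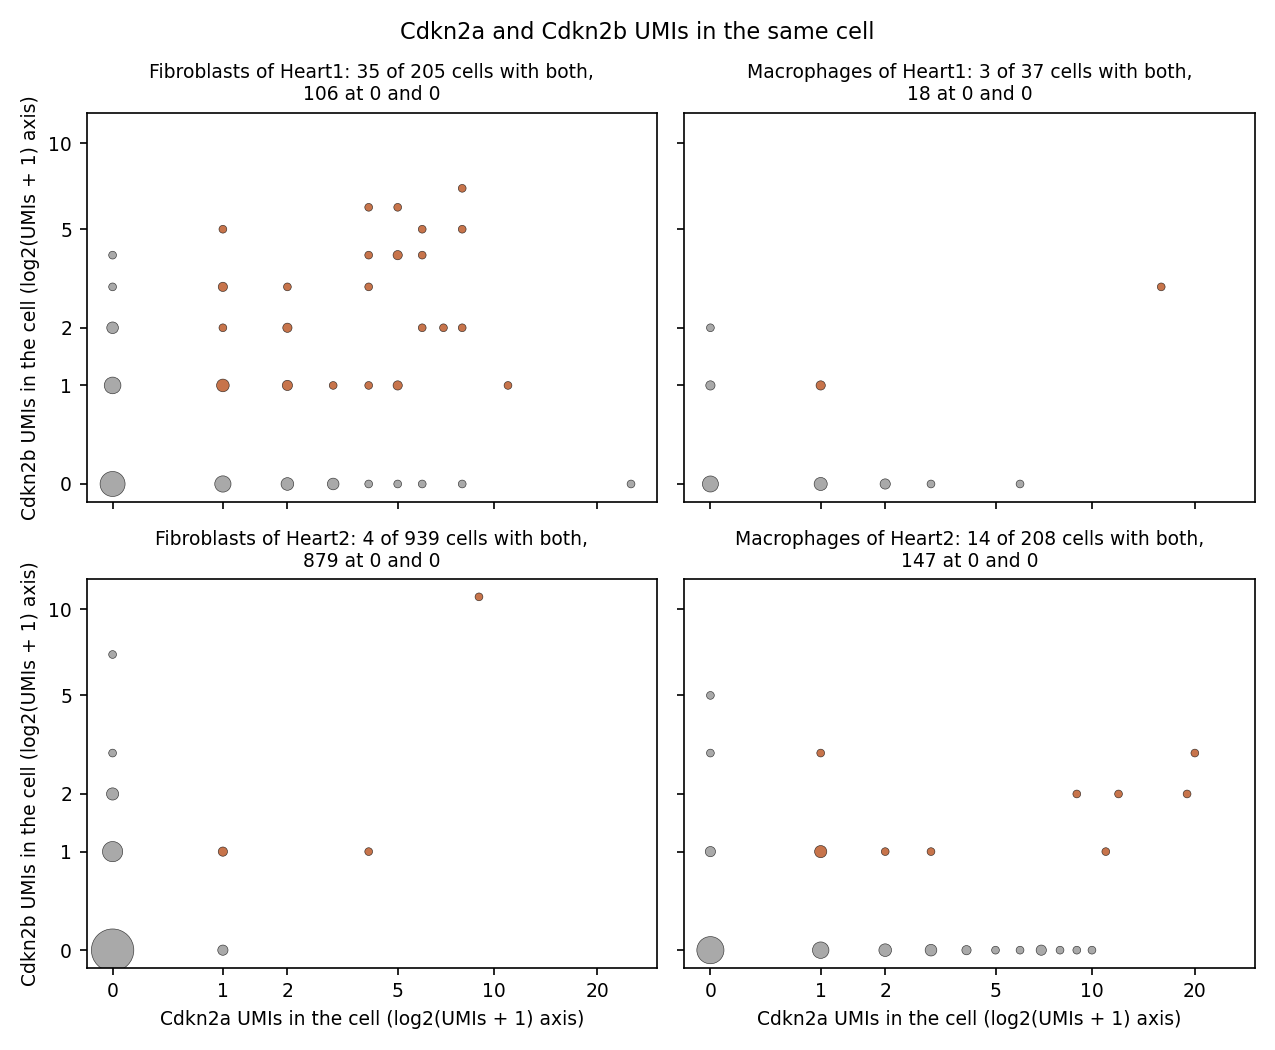
Cdkn2a UMIs (horizontal) and Cdkn2b UMIs (vertical) of each cell, both on a log2(UMIs + 1) axis, in fibroblasts (left) and macrophages (right) of Heart1 (top) and Heart2 (bottom). The area of a circle grows with the square root of the number of cells there, and orange circles are cells with both, 35, 3, 4 and 14 cells read from the top left to the bottom right.

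The level of Cdkn2b followed the same split. In fibroblasts of Heart1, 49.3% of 71 cells with Cdkn2a had a Cdkn2b UMI (37.2 to 61.4%), against 20.9% of 134 cells without (14.4 to 28.8%). Their Cdkn2b level was 88.6 CPM in cells with Cdkn2a and 22.3 CPM in cells without. In fibroblasts of Heart2, 57.1% of the 7 cells with Cdkn2a had one, against 5.69% of 932 without. In macrophages of Heart2, 25% of 56 cells with Cdkn2a had one, against 3.29% of 152 without, at 32.4 and 7.83 CPM. In macrophages of Heart1 the shares were 18.8% of 16 cells and 14.3% of 21 cells.

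Other genes give the scale for these shares. A share at least 2-fold higher in cells with than without Cdkn2a was found for 6.16% of 7771 genes in fibroblasts of Heart1, 24.5% of 7559 genes in macrophages of Heart1 and 9.59% of 7196 genes in macrophages of Heart2, counting genes present in 5 to 50% of the cells. Cdkn2b passed this mark in the first and the last of these strata, where Cdkn2d, at 1.53 and 1.44, did not. In macrophages of Heart1, Cdkn2c passed it at 3.06 and Cdkn2b did not. The Cdkn2b ratio of 2.36 in fibroblasts of Heart1 ranked 225 of 7771, and 50 of 7771 after thinning. Its ratio of 7.60 in macrophages of Heart2 ranked 1 of 7196, and 6 of 7196 after thinning. In macrophages of Heart1 its ratio of 1.31 ranked 2879 of 7559. Split by Cdkn2b instead, Cdkn2a had a ratio of 2.19 in fibroblasts of Heart1, where 7.1% of genes reached 2-fold, and of 3.32 in macrophages of Heart2, where 14.7% did and Cdkn2d reached 2.37. In fibroblasts of Heart2, where 5.37% of genes did, the compared member Cdkn2d was at 0.578. Split by Cdkn2c, no compared member reached 2-fold in fibroblasts of Heart1 or Heart2 (3.35% and 0.178% of genes). In macrophages of Heart1 (30.8% of genes) Cdkn2b at 5.40 and Cdkn2a at 2.10 did. Split by Cdkn2d, no compared member did in fibroblasts of Heart1 or Heart2 (5.51% and 0.268% of genes). In macrophages of Heart2 (9.7% of genes) Cdkn2c at 2.62 and Cdkn2b at 2.50 did. Among fibroblasts, Cdkn2c in both libraries and Cdkn2a in Heart2 lay outside 5 to 50% of cells and were not compared. The Cdkn2d split of fibroblasts of Heart2 thus compared Cdkn2b alone, at 0.527.

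The deepest of the 7 fibroblasts of Heart2 with Cdkn2a, with 17201 UMIs, held 9 Cdkn2a and 11 Cdkn2b UMIs, both the most of any fibroblast in that library, and 4 of Cdkn2c. Another held 4 Cdkn2a, 1 Cdkn2b and 1 Cdkn2c UMIs, and the other 5 held 1 Cdkn2a UMI each, 2 of them with 1 Cdkn2b UMI. Of the 7, 2 had 2 markers of another cell type, among them the cell with 4 Cdkn2a UMIs, and none had a UMI of a macrophage gate gene.

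For the other INK4 pairs the interval included 1 in every stratum, with 1 exception among the Cdkn2c and Cdkn2d values. Cdkn2a with Cdkn2c gave 0.98 and 0.85 in fibroblasts and 1.62 and 0.84 in macrophages of Heart1 and Heart2. Cdkn2a with Cdkn2d gave 1.29 and 0.60 in fibroblasts and 0.77 and 1.29 in macrophages. Cdkn2b with Cdkn2c gave 0.96 and 1.12 in fibroblasts and 2.47 and 0.995 in macrophages, the value of 2.47 resting on 4 cells. Cdkn2b with Cdkn2d gave 1.20 and 0.59 in fibroblasts and 0.69 and 2.11 in macrophages, on either side of 1 in each class. Split by Cdkn2d, the share ratio of Cdkn2b ranked 2109 of 7771 genes in fibroblasts of Heart1 and 7820 of 7845 in those of Heart2. It ranked 280 of 7196 in macrophages of Heart2. After thinning to 3000 UMIs these ranks were 912, 7803 and 127.

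Cdkn2c with Cdkn2d was above 1 in 4 of 4 strata, by less in fibroblasts. The ratio was 1.05 and 1.17 in fibroblasts (50 and 131 cells with both, 47.8 and 112 expected) and 1.23 and 2.18 in macrophages (3 and 12 cells, 2.43 and 5.50 expected). Only the 12 macrophages of Heart2 had a ratio interval above 1 (1.13 to 3.81). In fibroblasts of Heart2 that interval was 0.982 to 1.39, and the ratio was 1.10 over depth classes. By share, Cdkn2d was in 27.8% of those with Cdkn2c (23.8 to 32.0%) and 19.5% of those without (16.0 to 23.4%). In fibroblasts of Heart1 these shares were 38.8% and 34.2%. Among the 44 macrophages of Heart2 with Cdkn2c, 27.3% had Cdkn2d, against 8.54% of the 164 without. That share ratio of 3.19 ranked 21 of 7196 genes, of which 4.67% were at least 2-fold higher in cells with Cdkn2c.

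**Figure D4:**
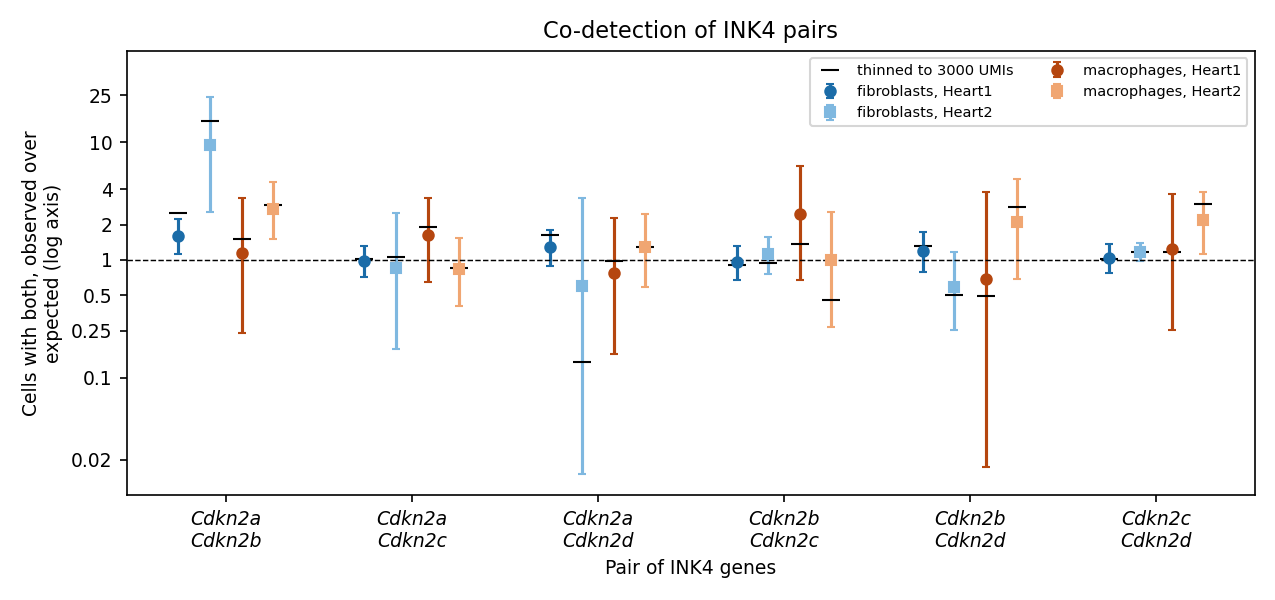
Observed over expected number of cells with both genes of each INK4 pair, on a log axis, in fibroblasts and macrophages of Heart1 and Heart2, with Poisson intervals of the observed count. Black dashes are the ratios after thinning to 3000 UMIs, and the dashed line at 1 is the product of the shares. The Cdkn2a and Cdkn2b pair lies above 1 in all 4 strata, at 1.60 and 9.41 in fibroblasts and at 1.16 and 2.74 in macrophages.

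Counted over the family, at least 1 INK4 gene was found in 175 of 205 fibroblasts (85.4%) of Heart1 and 588 of 939 (62.6%) of Heart2, and in 26 of 37 (70.3%) and 104 of 208 (50%) macrophages. All 4 genes together were found in 11 fibroblasts of Heart1, against 5.09 expected from the product of the 4 shares, and in 0 of Heart2, which allows a share of up to 0.319%. In macrophages all 4 were found in 1 cell of Heart1 and 2 cells of Heart2, against 0.171 and 0.135 expected. At least 3 of the genes were found in 43 and 9 fibroblasts of Heart1 and Heart2, against 37.8 and 7.77 expected. In macrophages the numbers were 4 and 9 cells, against 2.27 and 3.30 expected. Cells with no INK4 UMI numbered 30 against 21.7 expected and 351 against 332 expected in fibroblasts, and 11 against 9.72 and 104 against 95.3 in macrophages. These expected numbers take no account of depth, and the part of depth in the counts over the family was not tested. The most common set in fibroblasts was Cdkn2c alone, in 46 cells of Heart1 and 314 of Heart2, and in macrophages it was Cdkn2a alone, in 8 and 34 cells.

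Genes with a pattern like that of each INK4 gene were sought over 199 fibroblasts of Heart1 thinned to 5000 UMIs, by Pearson's r of log2(UMIs + 1) among 5944 genes, as a description over cells of 1 library. Closest to Cdkn2a were Id4 (r = 0.54), the Wnt ligand Wnt5a (0.44) and the syndecan Sdc1 (0.42). Cdkn2b was closest to Cdkn2a (0.41), the secreted Wnt inhibitor Wif1 (0.41) and Id4 (0.39). In 858 fibroblasts of Heart2 the same r was 0.52, 0.13 and 0.15 for the first 3 genes, over only 3 thinned cells with Cdkn2a, and 0.11, 0.18 and 0.15 for the last 3. For Cdkn2c the closest genes were Acyp1 (0.30), B3gnt8 (0.30) and Tiprl (0.28), with -0.02, -0.01 and -0.04 in Heart2. For Cdkn2d they were Atp1b1 (0.33), Wif1 (0.28) and Vta1 (0.26), with -0.02, -0.04 and 0.03 in Heart2.

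Fibroblasts of Heart1 with both Cdkn2a and Cdkn2b had the highest share of Wif1, Id4, Wnt5a and Sdc1. Wif1 was in 51.4% of the 35 cells with both, 19.4% of the 36 with Cdkn2a only, 28.6% of the 28 with Cdkn2b only and 4.72% of the 106 with neither. Id4 was in 71.4%, 33.3% and 25% of the same groups in turn and in 11.3% of cells with neither. For Wnt5a the shares were 54.3%, 25%, 32.1% and 8.49%, and for Sdc1 57.1%, 41.7%, 35.7% and 29.2%. In Heart2, Wif1 was in 2 of 4 cells with both, 6 of 53 with Cdkn2b only and 2 of 879 with neither. The interstitial fibroblast gene Hsd11b1 ran the other way in Heart1, at 22.9% of cells with both, 41.7% with Cdkn2a only, 35.7% with Cdkn2b only and 61.3% with neither. Pi16, an adventitial fibroblast gene, was in 82.1% or more of all 4 groups of Heart1. The genes of this paragraph and the H2-Aa split below were chosen after values were seen, and these cells are those of the correlations.

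Fibroblasts were therefore also divided by Wif1. Of the 38 fibroblasts of Heart1 with a Wif1 UMI, 65.8% had Cdkn2a and 68.4% had Cdkn2b, and of the 167 without, 27.5% and 22.2%. Median depth was alike, at 11902 and 11871 UMIs. The Cdkn2a and Cdkn2b ratio was 1.05 among fibroblasts with Wif1 (18 cells with both, 17.1 expected) and 1.67 among those without (17 cells, 10.2 expected). Thinned to 3000 UMIs, it was 1.33 and 2.46. The high shares among fibroblasts with Wif1 limit how far the ratio there can rise. In Heart2, 8 of the 10 fibroblasts with Wif1 had Cdkn2b and 2 had Cdkn2a.

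Leaving out fibroblasts with 2 markers of another cell type, mostly the mural markers above, lowered the shares in Heart1 to 25.9% for Cdkn2a and 22.4% for Cdkn2b. The Cdkn2a and Cdkn2b ratio was then 1.57 in Heart1 and 10.3 in Heart2, and the Cdkn2b difference from macrophages was -0.24 (limma adjusted p = 0.582). The part of these cells in the level of each gene beyond these values was not tested.

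In macrophages the shares were set beside MHC class II, which presents antigen to T cells. H2-Aa was in 0 of 3 macrophages of Heart1 and 42.9% of 14 macrophages of Heart2 with both Cdkn2a and Cdkn2b, in 46.2% and 47.6% of those with Cdkn2a only, and in 94.4% and 86.4% of those with neither. Divided by H2-Aa, Cdkn2a was in 76.9% of 13 macrophages of Heart1 without an H2-Aa UMI, against 25% of 24 with one. In Heart2, it was in 57.7% of 52 without, against 16.7% of 156 with one. Cdkn2b was in 38.5% and 19.2% of the macrophages without H2-Aa and in 4.17% and 5.77% of those with it. Macrophages without H2-Aa were also deeper, with medians of 12532 against 6987 UMIs in Heart1 and 11584 against 9235 in Heart2. Thinned to 3000 UMIs, Cdkn2a remained in 37.4% and 33.4% of macrophages without H2-Aa and in 12.8% and 7.90% of those with it. Within macrophages without H2-Aa, the Cdkn2a and Cdkn2b ratio was 0.78 in Heart1 (3 cells with both, 3.85 expected), or 1.12 after thinning. In Heart2 it was 1.39 (8 cells, 5.77 expected), or 1.85 after thinning. Within macrophages with H2-Aa it was 0 in Heart1 (0 cells, 0.25 expected) and 4 in Heart2 (6 cells, 1.5 expected), or 2.596 after thinning. In Heart2 the ratio was above 1 on both sides of the split, from 8 and 6 cells with both. In Heart1 it was below 1 on both sides before thinning, from 3 and 0 cells. The part of H2-Aa in the co-detection was not tested.

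**Figure D5:**
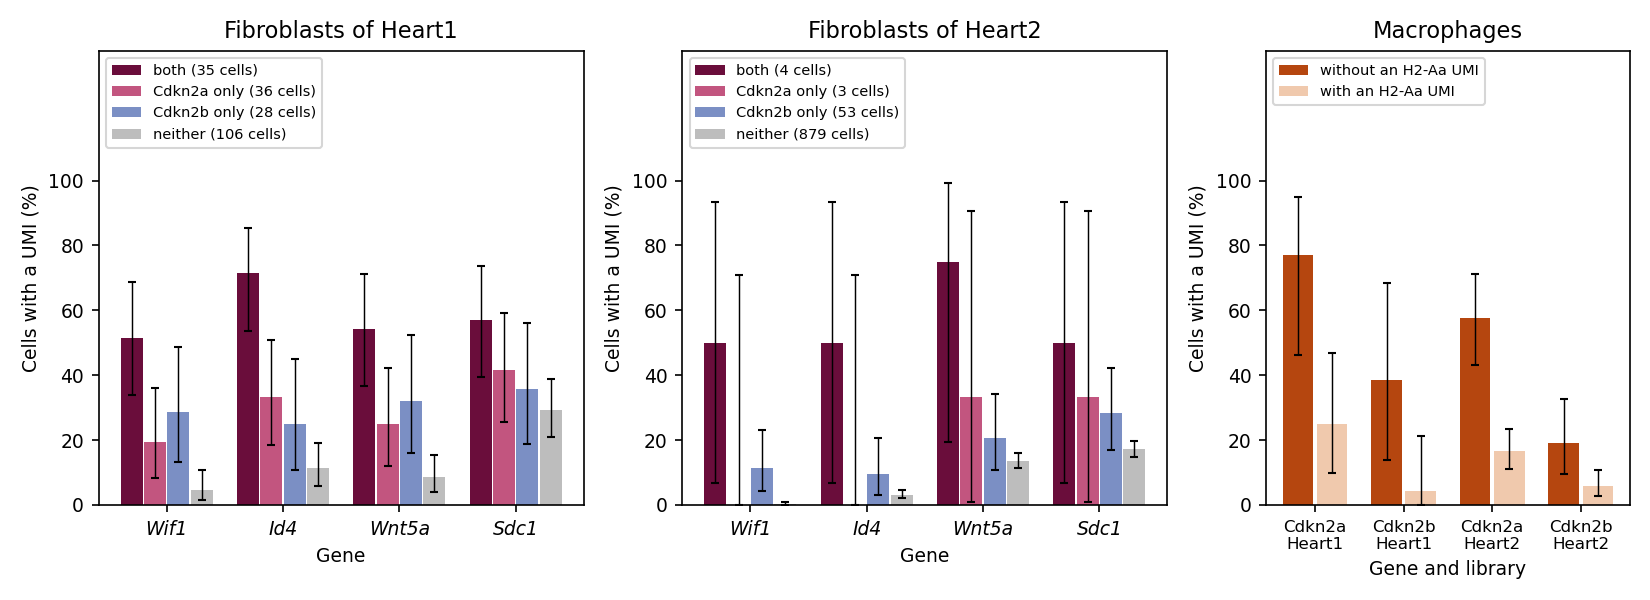
Share of fibroblasts of Heart1 (left) and Heart2 (middle) with a UMI of Wif1, Id4, Wnt5a or Sdc1, by whether the cell had both Cdkn2a and Cdkn2b, only one or neither, and share of macrophages with Cdkn2a or Cdkn2b, by H2-Aa (right), with exact binomial intervals. In Heart1, Wif1 is in 51.4% of fibroblasts with both and 4.72% of those with neither, and Cdkn2a is in 76.9% of macrophages without H2-Aa and 25% of those with it.

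Beyond the family, Cdkn1a, the p53 target p21, was set against the 2 genes of the Cdkn2a locus. The ratio for Cdkn2a with Cdkn1a was 1.25 and 2.44 in fibroblasts and 1.10 and 1.495 in macrophages of Heart1 and Heart2. For Cdkn2b with Cdkn1a it was 1.25 and 1.32 in fibroblasts and 1.30 and 2.13 in macrophages. All 8 values were above 1, and those of macrophages of Heart2 had intervals above 1, at 1.02 to 2.12 and 1.19 to 3.52. Over the 4 depth classes those 2 intervals included 1, at 0.914 to 1.91 and 0.992 to 2.92, and the first pair gave 0.995 in macrophages of Heart1. The median gene also had a share ratio above 1 in macrophages of Heart2, 1.27 split by Cdkn2a and 1.32 split by Cdkn2b. Of Cdkn2a and Cdkn1c, 22 fibroblasts of Heart1 had both, against 32.2 expected (0.683, 0.428 to 1.03). In fibroblasts of Heart2, 0 cells had both, against 3.24 expected, and both ratio intervals included 1. By share, Cdkn1c was in 30.99% of fibroblasts of Heart1 with Cdkn2a (20.54 to 43.08%) and 52.99% of those without (44.18 to 61.66%). These share intervals did not overlap. The ratio there was 0.677 thinned to 3000 UMIs and 0.672 over depth classes. In macrophages of Heart2 the ratio lay on the other side of 1, at 1.198 (0.575 to 2.203).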

How the data were processed

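The deposited table holds natural log values, ln(1 + UMIs scaled to 10000 per cell), for 15247 genes in 1426 cells. Reads were processed with Cell Ranger 3.0.2 against mm10, per the submitters' processing notes. For the normalizing tool, and for filters on cells or genes, the sources used here name nothing. Undoing the log gave 10000 per cell, and 4459440 of 4459440 values above 0 were whole UMIs within 1e-06, with 3164 to 79999 UMIs per cell and 3304045 and 10632723 in all in Heart1 and Heart2. Reporter transcripts were not analysed here. No sample columns were left unused.

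The members, gene lists and marker gates were chosen with earlier results of these data known. The library prefixes could not be tied to single samples. The titles of the samples also differ by a number whose meaning is not given. Scrublet in scanpy 1.11.5 predicted 4 and 2 doublets, too few in Heart2 for the caller to be relied on, and these cells were kept. UMIs were summed per library and class (at least 30 cells) and scaled to CPM. Genes with a mean of at least 10 CPM were tested on log2(CPM + 5) with limma 3.58.1 in R 4.3.3, library as block, after leaving out the 12 gate markers, with Benjamini-Hochberg adjustment. A count model was not used because the deposited values are normalized, although the whole UMIs recovered from them would have allowed one. The prefix pairs fibroblasts and macrophages of 1 library, and their deviations correlated at 0.181 over 8792 genes. On simulated data for this comparison, 163 of 177 genes changed 4-fold were called among 8649 genes, with 1 unchanged gene called. In the simulation both classes of a library shared its library effect, and class differences varied between libraries by count noise only. It thus gives no rate of false calls for genes such as Cdkn2a, whose library differences were -0.50 and -3.84. Shares have exact Clopper-Pearson intervals (scipy 1.17.1) and counts exact Poisson intervals. A count of 0 allows up to 3 counts. Thinning drew 3000 or 5000 UMIs per cell.

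Named are the INK4 genes, all genes of the CIP/KIP, D cyclin and CDK4/6 and RB lists, up to 5 called genes with the largest difference per other list, and the 3 genes with the highest r to each member. Other genes named were chosen after their values were seen. Symbols were matched to RefSeq and GENCODE M21 for 15087 of 15247 genes.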

Additional observations from a re-analysis of the deposited data

Results flagged for a closer look

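INK4 transcripts were also found in the 24 cells of Heart1 and 13 cells of Heart2 that passed neither gate or both, which no comparison used. Each value below is above the 3 UMIs that a count of 0 allows. In the ungated cells of Heart1 there were 41 Cdkn2a, 28 Cdkn2b, 5 Cdkn2c and 7 Cdkn2d UMIs. In those of Heart2 there were 6 Cdkn2a and 6 Cdkn2c UMIs. Of the 24 in Heart1, 10 had Cdkn2a, 7 had Cdkn2b and 5 had both. Among them, 6 cells had 2 endothelial markers, of which 3 had Cdkn2a, 4 had Cdkn2b and 3 had both. Of 9 cells with 2 T and NK markers 1 had Cdkn2a, and of 6 with 2 B cell markers 3 had it. In Heart2, 9 of the 13 had 2 endothelial markers, and 2 of these had Cdkn2a.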

How the results depend on the processing

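With the replicate block removed (library), Cdkn2a stayed at -2.17 with a limma adjusted p of 0.171, and with robust moderation, added after seeing the data, at -2.17 with a limma adjusted p of 0.490. Over its alternatives that p ran between 0.000121 and 0.490. Leaving out each library gave -3.84 to -0.50 for Cdkn2a, -0.50 to 0.75 for Cdkn2b, 1.13 to 1.33 for Cdkn2c and -0.10 to 0.56 for Cdkn2d, as values with no test. Cdkn2b was -0.24 without cells with markers of other types. The cause of these shifts was not tested. Cdkn2c stayed called in every alternative with a test (limma adjusted p of 5.30e-05 to 0.00451). Genes called higher numbered 1757 to 3388 and genes called lower 1248 to 1935. The Cdkn2a and Cdkn2b ratio in fibroblasts of Heart1 was 2.51 thinned to 3000 UMIs and 2.96 when 2 UMIs were required, which gave 52.2 from 1 cell in fibroblasts of Heart2. It was 1.39 in macrophages of Heart2 without H2-Aa, a split added after seeing the data. Over 9 alternatives each it was above 1 in all for fibroblasts of Heart1 (1.41 to 2.96) and Heart2 (5.87 to 52.2) and macrophages of Heart2 (1.39 to 4.10), and in 8 for macrophages of Heart1 (0.78 to 3.08). These include the cells without Wif1 or H2-Aa, and fibroblasts of Heart1 with Wif1 gave 1.05, or 1.33 thinned to 3000 UMIs. With 4 depth classes the interval for fibroblasts of Heart1 included 1 (0.981 to 1.96). Of the single shares and other pairs, 215 values moved by less than their counting interval and 57 by more. Precision is limited by 37 macrophages in Heart1 and by 7 fibroblasts with Cdkn2a in Heart2.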

Other observations

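Other macrophage genes were read in the same cells as Cdkn2a and Cdkn2b. Folr2, a folate receptor of tissue-resident macrophages, was in 100% of the 14 macrophages of Heart2 with both genes, 78.6% of 42 with Cdkn2a only, 100% of 5 with Cdkn2b only and 64.6% of 147 with neither. In Heart1 it was in 3 of 3 with both, 76.9% of 13 with Cdkn2a only, 3 of 3 with Cdkn2b only and 38.9% of 18 with neither. The Folr2 level in these groups, in the same order, was 1228, 1310, 906 and 1206 CPM in Heart2. In Heart1 it was 847, 643, 547 and 184 CPM. Cd163, also listed as a gene of resident macrophages, was in 7 of 14, 25 of 42, 2 of 5 and 72 of 147 in Heart2. Its counts in Heart1 were 2 of 3, 9 of 13, 1 of 3 and 8 of 18. In Heart2 neither the Folr2 level nor the Cd163 share was highest in macrophages with both genes. Cd74, the invariant chain of MHC class II, was at 1578 CPM in macrophages of Heart2 with both, 8373 CPM with Cdkn2a only, 2619 CPM with Cdkn2b only and 24300.0 CPM with neither. These genes were chosen with values in view, and the groups differ in depth, with medians of 12170, 11209, 12344 and 9281 UMIs in Heart2. The part of depth in these values was not tested.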
